A study of Mus musculus with 8 samples.

Results

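The antiviral interferon-stimulated genes described here are 32 genes treated as a module. They run from sensors of viral RNA to the enzymes and membrane proteins that block viral growth. The list was chosen with earlier results of these data known. All 32 were found among the 53465 gene identifiers in the files, and each reached 5 CPM (reads scaled to the size of the library) in at least 1 library of total Treg cells. They were followed in RNA sequencing of mouse regulatory T (Treg) cells in which Brg1 (Smarca4), the ATPase of the BAF chromatin remodelling complex, was deleted and then restored.

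Type I interferon binds the receptor made of IFNAR1 and IFNAR2, whose kinases JAK1 and TYK2 activate STAT2. With IRF9 it acts in the complex ISGF3, which binds the interferon-stimulated response element (ISRE) in the promoters of antiviral genes. Interferon gamma acts mostly at another element, the gamma-activated site (GAS), and favours GTPases of the GBP and IRG families. Many antiviral genes also have a basal level that is kept up by the low interferon tone of an uninfected animal.

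Each of the 8 libraries was the only one of its condition and came from sorted cells of spleen and lymph nodes of C57BL/6 mice aged 3 to 4 weeks. All mice carried R26CAG-FlpoER, a tamoxifen (TAM)-dependent Flpo recombinase made in all tissues. In the total Treg experiment, the WT library came from BrgF/+ mice with Foxp3YFP-Cre/+, so that its cells carried 1 floxed Brg1 allele and Cre from the Foxp3 locus. The other 5 libraries came from mice with BrgF and the reversibly trapped null allele ΔR. Mosaic females gave a Brg1-sufficient library, with the label Foxp3+/+, and a Brg1-deleted library, with Foxp3YFP-Cre. The rKO1 mice, labelled Foxp3YFP-Cre/YFP-Cre, gave Brg1-deleted Treg cells without TAM, and on Day 7 after TAM the Brg1-deleted (GFP+) and Brg1-reexpressed (GFP−) subsets, the latter labelled BrgF/+ since the trap had been removed. By the study's methods Treg cells were sorted as CD4+CD25+YFP+, a gate that the Foxp3+/+ cells of the mosaic females cannot meet. Activated Treg (aTreg) cells, gated in addition as CD44hi CD62Llo, gave 2 further libraries in a separate experiment, from rKO1 mice 7 days past TAM, and their levels are not compared with those of the first. The aTreg library titled Brg1-deleted carries the genotype BrgF/F in its description and a WT heading in its file, so that both aTreg libraries are called by their titles only.

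The libraries held between 16304185 and 24061167 reads on genes, and 1 read was worth between 0.0412 and 0.0603 CPM after scaling with the trimmed mean of M-values (TMM). Smarca4, the targeted gene, had 87.9 CPM in WT, 77.1 in mosaic Brg1-sufficient and 47.2 in mosaic Brg1-deleted cells, and 44.0, 36.1 and 58.1 in the untreated, GFP+ and GFP− rKO1 cells. The aTreg library labelled Brg1-deleted had more of it (71.2 CPM) than the one labelled Brg1-reexpressed (59.4 CPM), against the labels. All 6 Treg markers (Cd3e, Cd4, Foxp3, Il2ra, Ctla4 and Ikzf2) had reads in every library. Cd3e, a part of the T cell receptor complex, divided the libraries as the module did, with 372, 674 and 598 CPM in WT, mosaic Brg1-sufficient and mosaic Brg1-deleted cells against 183, 102 and 112 CPM in untreated, GFP+ and GFP− rKO1 cells, and its part in the results was not tested. The WT library stood apart in Foxp3, with 73.0 CPM against a range of 106 to 536 CPM in the other total Treg libraries, and in the early response genes Fos (348 CPM) and Jun (228 CPM), which reached at most 152 and 80.3 CPM elsewhere in that experiment. The aTreg library labelled Brg1-reexpressed stood apart in red cell genes, with a summed level of 22862 CPM over 6 erythroid markers against 1174 CPM in the other. Reads of Y-linked genes were absent from the WT and both mosaic libraries and present in all 3 rKO1 libraries (Ddx3y at 54.4, 34.5 and 27.4 CPM) and both aTreg libraries, although the labels give rKO1 mice a pair of Foxp3 alleles. Since no condition was repeated, no difference could be held against the spread of replicates, and no p-value is given. The 95% intervals are exact for the read counts and take in counting error alone.

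The module stood at a high level in the WT and mosaic libraries and at a low level in all 3 libraries of rKO1 mice, whether or not Brg1 was present. The level of each gene was set on a log2 scale against its own mean over the 6 total Treg libraries, and the median over the 32 genes was taken. This median was 0.88 in WT, 0.62 in mosaic Brg1-deleted and 0.60 in mosaic Brg1-sufficient cells. It was −0.62 in GFP− Brg1-reexpressed, −0.70 in GFP+ Brg1-deleted and −0.76 in untreated Brg1-deleted rKO1 cells. The gap of 1.22 log2 units between the lowest of the first 3 libraries and the highest of the rKO1 libraries was wider than the differences inside either group of libraries. The order within the rKO1 libraries turned over under other scalings, whereas the gap kept its direction under all those tried. In 17 of the 32 genes the highest of the 6 levels was in WT and in 9 in mosaic Brg1-deleted cells, while the lowest was in the GFP− library in 14, and in the untreated and GFP+ libraries in 8 each.

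**Figure D1:**
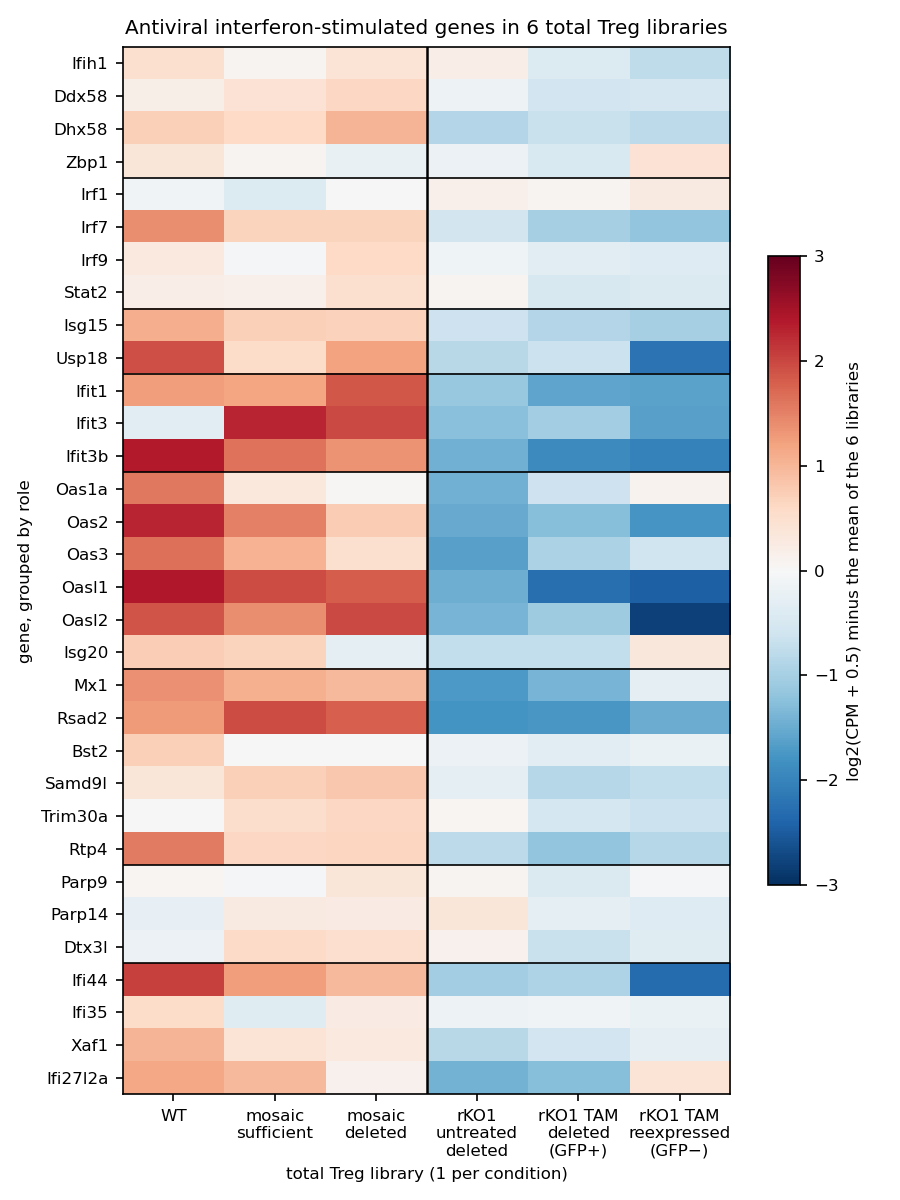
Each row is a gene, grouped by role, and each column 1 of the 6 total Treg libraries. The colour is log2(CPM + 0.5) minus the mean of the gene over the 6 libraries, red for above and blue for below. The 3 columns left of the vertical line (WT and mosaic) are mostly red and the 3 rKO1 columns mostly blue, with Irf1 the other way round.

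Gene by gene, all 3 rKO1 libraries lay below all 3 of the others in 21 of the 32 members, against 12.5% of the 11046 genes with 5 CPM in any of the libraries. In 14 members the gap was 2-fold or more, which held for 0.77% of those genes. These 14 were Oasl1, Rsad2, Ifit3b, Oas2, Oasl2, Ifit1, Ifi44, Rtp4, Mx1, Isg15, Dhx58, Irf7, Oas3 and Usp18. Of these, Oasl1, Rsad2, Ifit3b, Oas2, Oasl2, Ifi44 and Oas3 were under 5 CPM in every rKO1 library. They reached the 5 CPM only through WT or mosaic libraries. Irf1 alone among the members lay above in all 3 rKO1 libraries, against 9.49% of all genes, and the other 10 members overlapped. Without the WT library, 23 members lay below, against 24.0% of genes. The rKO1 libraries differ from the rest in more than the mouse line. The summed level of 5 B cell markers was 45.9 to 73.9 CPM in WT and mosaic and 11.9 to 26.6 CPM in rKO1 libraries, with Pax5 at 0 reads in 2 of the latter. For 6 markers of plasmacytoid dendritic cells, a source of interferon, the ranges were 23.4 to 33.1 and 7.82 to 12.8 CPM, with Siglech at 0 reads in 2 rKO1 libraries. Most of that sum in WT (26.1 CPM) and in untreated rKO1 cells (9.20 CPM) was Ccr9, which T cells also express. The sum of 5 neutrophil markers was 0.378 to 3.13 CPM in the former and 12.5 to 26.6 CPM in the latter, and that of 8 myeloid markers, with Lyz2 the most abundant, ran from 134 to 428 and from 51.9 to 143 CPM. Other myeloid markers went the opposite way to Lyz2 against the mosaic cells, with Csf1r at 1.32 CPM in mosaic Brg1-deleted and 17.1 CPM in untreated rKO1 cells and Fcgr3 at 1.81 and 22.8 CPM. Of 6 such markers with enough reads in that comparison, 4 were higher and 0 lower in rKO1 (median 2.69). The part of these cells in the result was not tested. By the study's account rKO1 mice were severely inflamed and the mosaic females healthy. The mouse line, its inflammation, its sex-linked reads and the cells sorted with it cannot be told apart. In such bulk samples, fewer cells of a type and less RNA per cell cannot be told apart either.

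Compared per exon length, Ifi27l2a, a small interferon-induced membrane protein, was by far the most abundant member, with a mean of 4966 TMM-scaled FPKM over the 6 total Treg libraries. Bst2 (263 FPKM), Isg15 (236 FPKM), Ifi35 (129 FPKM) and Isg20 (105 FPKM) followed. The least abundant were Oas3 (0.877 FPKM), Oas2 (1.04 FPKM) and Ifi44 (1.27 FPKM). Ifi27l2a alone held between 24.9% and 53.9% of all reads of the module, so that sums over members follow it. Without it, the summed level was 4178 CPM in WT, 3179 and 3412 CPM in mosaic Brg1-sufficient and Brg1-deleted, and 2116, 1846 and 2114 CPM in untreated, GFP+ and GFP− rKO1 cells.

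The ubiquitin-like protein ISG15, which is linked to other proteins during infection, and USP18, which removes it and also blocks the interferon receptor, both belonged to the 14. Isg15 (ENSMUSG00000035692, mm10 chr4:156199424-156200818, minus strand) had 320 CPM in WT, 250 in mosaic Brg1-sufficient, 245 in mosaic Brg1-deleted, 98.7 in untreated rKO1, 81.5 in GFP+ and 75.3 in GFP− cells. The 3 rKO1 levels were close to each other and none reached 100 CPM. Usp18 (ENSMUSG00000030107, chr6:121245906-121270917, plus strand) had 315, 121, 192, 46.3, 52.8 and 17.5 CPM in the same order. It was highest in WT and lowest after Brg1 reexpression.

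The IFIT proteins bind viral RNA that lacks the cap marks of the host. Ifit1 (ENSMUSG00000034459, chr19:34640871-34650009, plus strand) had 83.9 CPM in WT, 79.5 in mosaic Brg1-sufficient and 127 in mosaic Brg1-deleted cells against 15.6, 11.3 and 11.2 CPM in untreated, GFP+ and GFP− rKO1 cells. The lowest of the first 3 libraries thus exceeded the highest of the rKO1 libraries 5.10-fold. Ifit3 (chr19:34583531-34588731) and its neighbour and near copy Ifit3b (chr19:34607970-34613401) can share reads, and the split between them was uneven, with Ifit3 taking 14.5% of their sum in WT against 57.3% to 69.5% in the other total Treg libraries. Single values of either gene are therefore uncertain. Summed, they had 68.1 CPM in WT, 96.8 and 78.3 in mosaic Brg1-sufficient and Brg1-deleted, and 8.57, 8.24 and 5.91 in untreated, GFP+ and GFP− rKO1 cells. The sum placed all 3 rKO1 libraries far below the others and removed the outlying WT value of Ifit3 (9.88 CPM).

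Promoters of Isg15 and the IFIT genes are shown because they carry the response element that the module is known for. Each stretch runs from 200 bases before the transcription start in RefSeq (GRCm38.p6) up to the base before it, 5′ to 3′ on the strand of the gene. Capitals mark GAAANNGAAA, 2 GAAA half-sites spaced by 2 bases as in an ISRE, or its reverse complement TTTCNNTTTC.
Isg15 (chr4:156200819-156201018, minus strand): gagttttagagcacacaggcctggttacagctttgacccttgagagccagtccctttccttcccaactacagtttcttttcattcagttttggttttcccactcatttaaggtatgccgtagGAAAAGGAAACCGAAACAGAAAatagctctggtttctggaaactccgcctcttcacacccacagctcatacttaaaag
Ifit1 (chr19:34640689-34640888, plus strand): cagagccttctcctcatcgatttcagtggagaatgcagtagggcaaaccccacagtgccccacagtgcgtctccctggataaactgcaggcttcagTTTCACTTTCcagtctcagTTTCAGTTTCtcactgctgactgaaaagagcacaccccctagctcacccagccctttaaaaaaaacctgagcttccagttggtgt
Ifit3 (chr19:34583329-34583528, plus strand): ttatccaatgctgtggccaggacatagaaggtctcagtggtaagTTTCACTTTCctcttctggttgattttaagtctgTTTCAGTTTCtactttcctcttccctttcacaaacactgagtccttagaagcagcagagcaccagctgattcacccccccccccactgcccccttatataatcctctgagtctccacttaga
Ifit3b (chr19:34607757-34607956, plus strand): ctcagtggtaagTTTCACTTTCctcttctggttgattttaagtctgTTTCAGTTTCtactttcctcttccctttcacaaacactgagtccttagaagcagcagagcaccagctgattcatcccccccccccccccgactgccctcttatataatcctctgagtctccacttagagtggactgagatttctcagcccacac
Isg15 held 3 overlapping matches from 78 to 57 bases before its start, which form 1 run of 4 half-sites. Ifit1, Ifit3 and Ifit3b held 2 separate matches each, and the pair in Ifit3 recurs in Ifit3b further from the start, at 188 and 154 bases before it against 156 and 122 in Ifit3.

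OAS enzymes make an RNA messenger that switches on the nuclease RNase L, and the OAS-like proteins sense or dampen related signals. Oasl1 (ENSMUSG00000041827, chr5:114923240-114937915) had 317, 293 and 306 reads in WT, mosaic Brg1-sufficient and mosaic Brg1-deleted cells and 16, 5 and 3 reads in untreated, GFP+ and GFP− rKO1 cells. In CPM these were 19.1, 13.8 and 12.6 against 0.836, 0.273 and 0.179, the widest gap of any member at 15.1-fold. Oasl2 had 26.5, 18.7 and 28.1 CPM in the former and 2.25, 3.00 and 0.537 CPM in the latter libraries. Both OAS-like genes were thus close to silent in rKO1 cells. Oas2 (13.9, 7.84 and 4.49 against 0.523, 0.709 and 0.358 CPM) and Oas3 (15, 9.77 and 6.46 against 1.10, 2.07 and 2.81 CPM) followed the same division at lower levels. Oas1a did not, since its 24.3 CPM in GFP− cells exceeded the 22.9 CPM of mosaic Brg1-deleted cells, with 67.7 CPM in WT, 28.2 in mosaic Brg1-sufficient, 8.0 in untreated and 14.5 CPM in GFP+ rKO1 cells. Isg20, an exonuclease that degrades viral RNA, also overlapped, with 300, 285 and 147 CPM against 107, 107 and 226 CPM. In both, the overlap came from the GFP− library.

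Among factors that restrict viruses in the cell, RSAD2 (viperin) makes an altered nucleotide that stops viral RNA synthesis, MX1 is a GTPase that traps viral nucleoproteins, and BST2 (tetherin) holds budding virus at the membrane. Rsad2 (ENSMUSG00000020641, chr12:26442746-26456452) had 14.2, 23.0 and 20.5 CPM in WT, mosaic Brg1-sufficient and mosaic Brg1-deleted cells against 1.25, 1.31 and 1.67 CPM in untreated, GFP+ and GFP− rKO1 cells. Mx1 had 18.3, 14.7 and 13.9 CPM against 1.73, 2.29 and 5.49 CPM. The GFP− cells had the highest Mx1 of the rKO1 libraries and still stayed below the other 3. Rtp4, which restricts flaviviruses, had 374, 194 and 198 CPM against 73.4, 56.0 and 69.7 CPM. Samd9l, an inhibitor of growth and of poxviruses, ranged from 110 to 153 CPM in WT and mosaic and from 47.3 to 71.0 CPM in rKO1 libraries. Bst2 was separated by a narrow margin, at 227 CPM in both mosaic libraries and 381 in WT against 185 to 203 CPM in rKO1 cells, and Trim30a overlapped, with 125 CPM in WT and 131 CPM in untreated rKO1 cells.

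RIG-I (Ddx58), MDA5 (Ifih1) and LGP2 (Dhx58) sense viral RNA in the cytosol, and ZBP1 senses Z-form nucleic acid. Dhx58 had 39.4 CPM in WT, 36.2 and 49.2 in mosaic Brg1-sufficient and Brg1-deleted, and 12.7, 14.9 and 13.7 in untreated, GFP+ and GFP− rKO1 cells. It was the only sensor of the 4 with a gap over 2-fold. Ddx58 lay at 39.4 to 54.2 CPM in WT and mosaic and 23.2 to 31.5 CPM in rKO1 libraries, whereas Ifih1 (9.37 to 23.0 CPM over the 6 libraries) and Zbp1 (108 to 200 CPM) overlapped.

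The transcription factors of the response were divided. IRF7, which amplifies interferon production, had 278 CPM in WT and 168 and 169 CPM in mosaic Brg1-sufficient and Brg1-deleted cells against 72.4, 53.0 and 46.6 CPM in untreated, GFP+ and GFP− rKO1 cells. The ISGF3 subunits Irf9 (173, 134 and 212 against 127, 113 and 107 CPM) and Stat2 (48.2, 46.6 and 58.5 against 44.0, 29.5 and 30.7 CPM) were lower in all rKO1 libraries by narrow gaps, outside the 14. Irf1, which responds strongly to interferon gamma, went the other way by a narrow gap, with 341, 276 and 368 CPM against 408, 391 and 445 CPM. Its promoter is shown for contrast, since no ISRE-like match was found in it. Capitals mark TTCNNNGAA, the core of a GAS, which lay 90 to 82 bases before the start. Of the other members that held this match, Bst2 was lower in all rKO1 libraries, and Ifi35, Isg20 and Oas1a overlapped. A link between match and direction was not tested.
Irf1 (chr11:53769814-53770013, plus strand): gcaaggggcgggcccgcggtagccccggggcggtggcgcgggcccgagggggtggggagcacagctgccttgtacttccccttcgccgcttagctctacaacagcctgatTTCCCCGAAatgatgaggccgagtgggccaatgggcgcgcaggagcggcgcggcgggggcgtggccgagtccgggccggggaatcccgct

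Parp9, Parp14 and Dtx3l, ADP-ribosyltransferases and their ubiquitin ligase partner, showed no division by mouse line over the 6 libraries. With the untreated rKO1 library left out, each was lower in both TAM libraries than in WT and mosaic cells, Parp9 and Parp14 narrowly. Parp14 had 70.1, 100 and 98.8 CPM in WT, mosaic Brg1-sufficient and mosaic Brg1-deleted cells and 106, 69.2 and 63.6 CPM in untreated, GFP+ and GFP− rKO1 cells. Parp9 ranged from 40.6 to 70.8 CPM and Dtx3l from 35.5 to 84.8 CPM over the 6 libraries. Parp9 and Dtx3l lie head to head and share 9.40% and 8.0% of their exon bases with other genes, as do Ifi35 (16.8%) and Rtp4 (13.9%), and the kit does not mark strand, so that their reads are less certain. Of the remaining members, Ifi44 (20.7, 11.7 and 9.47 against 1.99, 2.18 and 0.537 CPM) and Xaf1, a promoter of cell death (275, 181 and 166 against 75.8, 90.9 and 112 CPM), were lower in all rKO1 libraries. Ifi35 overlapped (169 to 319 against 189 to 202 CPM). Ifi27l2a had 4183, 3654 and 2018 CPM against 700, 770 and 2470 CPM, and the GFP− cells alone among the rKO1 libraries reached the level of the mosaic Brg1-deleted cells.

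**Figure D2:**
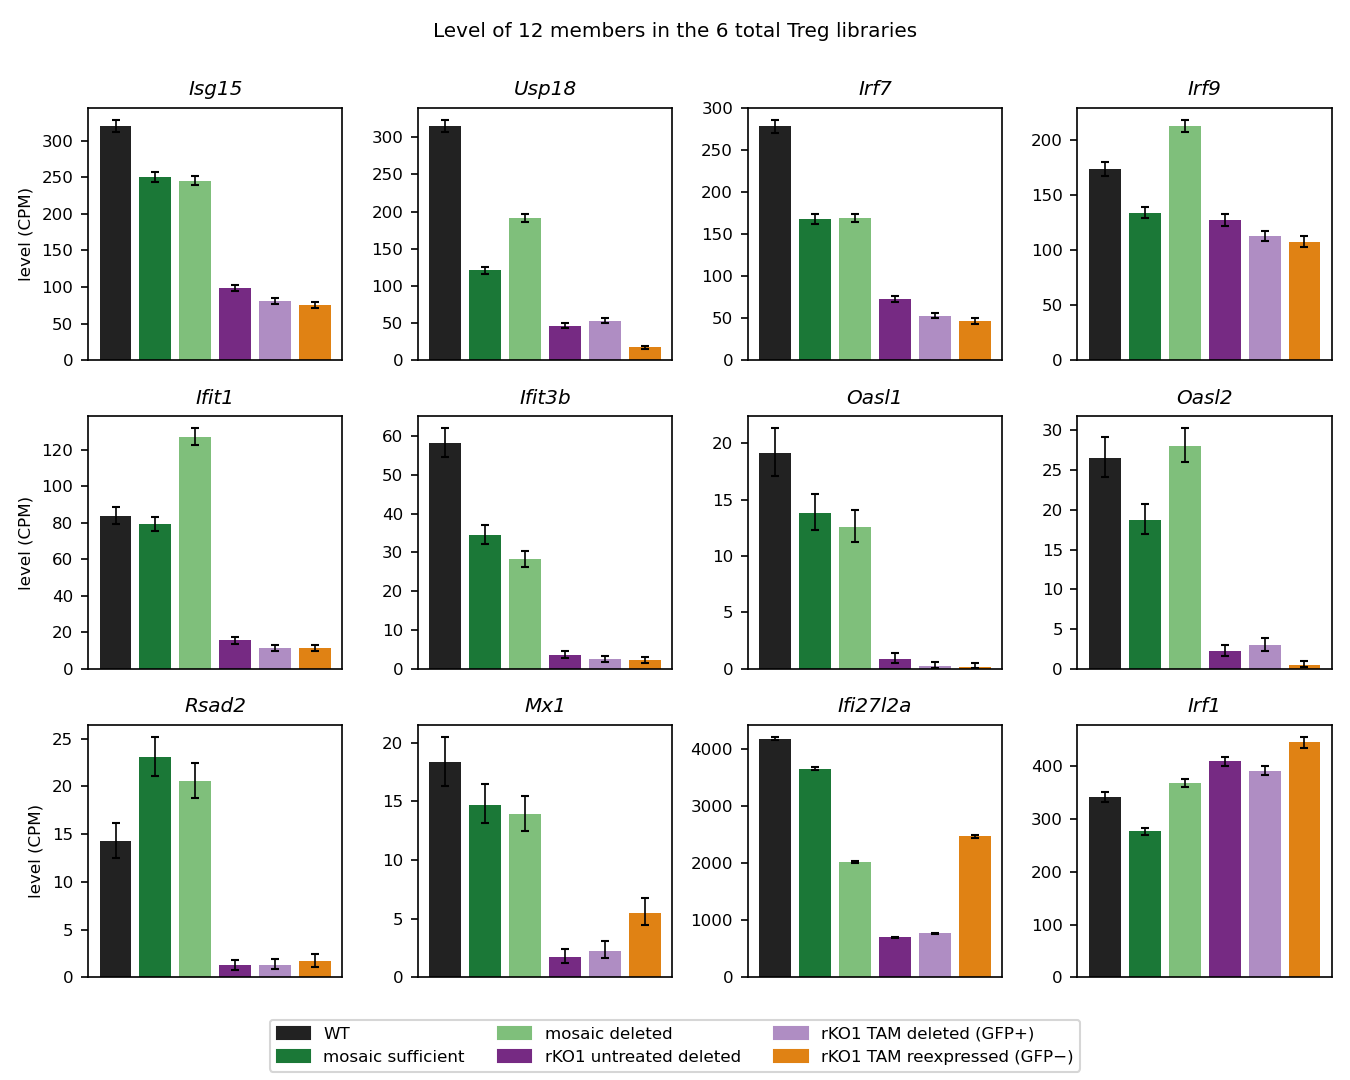
The level in CPM of 12 members in the 6 total Treg libraries, 1 bar per library from 0, with exact 95% Poisson intervals of the reads (counting error only). In 10 panels every rKO1 bar is below the WT and mosaic bars, in Ifi27l2a the GFP− bar (2470 CPM) passes the mosaic Brg1-deleted bar (2018 CPM), and in Irf1 the rKO1 bars are the taller ones.

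To ask how the module differed between Brg1-deleted cells that shared the animal with normal Treg cells and those that did not, untreated rKO1 was set against mosaic Brg1-deleted cells. A gene was called when it had 5 CPM in either library and differed at least 2-fold. Of 31 members with enough reads, 18 were called lower and 0 higher in rKO1, where 6.95% of all 10414 genes were lower and 8.16% higher. Ifi44, Ifit3, Ifit3b, Mx1, Oas3, Oasl1, Oasl2 and Rsad2 were under 5 CPM in untreated rKO1 and entered only through the mosaic library. Such members could be called lower but not higher. The median log2 fold change of the members was −1.22, against −0.05 for all genes. Rsad2 was 16.3-fold lower (95% interval 10.9 to 25.8), Oasl1 15-fold (9.13 to 26.7), Oasl2 12.5-fold (9.17 to 17.4) and Ifit1 8.17-fold (7.25 to 9.23). All 3 IFIT genes were called, as were both ISG15 system genes and 4 of the 5 OAS group genes with enough reads, but none of Parp9, Parp14 and Dtx3l.

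The same question was put to cells with Brg1, using a pair of libraries that shares none with the first. Both pairs set rKO1 mice against mosaic females, so that effects of the animals enter both and shared calls are not independent. In GFP− Brg1-reexpressed rKO1 cells against mosaic Brg1-sufficient cells, 17 of 32 members were lower and 0 higher, against 10.9% and 10.8% of 10337 genes, with a median of −1.29. Ifi44, Ifit3, Ifit3b, Oas2, Oas3, Oasl1, Oasl2 and Rsad2 were under 5 CPM in GFP− cells and could not be called higher. Oasl1 had 3 against 293 reads, a ratio of 74.5 with an interval of 26.2 to 377. Oasl2 was 34.5-fold (18.2 to 76.9), Ifi44 21.5-fold (11.3 to 48.2) and the sum of Ifit3 and Ifit3b 16.4-fold lower. Irf1 was 1.61-fold higher (1.56 to 1.67) and stayed under the 2-fold threshold. The calls of both comparisons shared 15 members, 83.3% of the first list and 88.2% of the second. Over all genes called lower, 370 were shared, 51.1% and 32.7% of the lists.

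Against WT, which shares the untreated rKO1 library with the first of these comparisons, 19 of 32 members were lower and 0 higher (7.11% and 8.61% of 10479 genes), with a median of −1.67. The members under 5 CPM in untreated rKO1, Oas2 now among them, could again not be called higher. Oas2 was 26.2-fold lower (14.2 to 56.0), Oasl1 22.7-fold (13.8 to 40.4) and Usp18 6.81-fold (6.34 to 7.32). Isg20, Oas1a and Ifi27l2a were also among the 19, at 2.81-fold, 8.45-fold and 5.97-fold lower. With library totals in place of TMM, the share of higher genes among all calls moved from 54.8% to 77.9% here and from 54.0% to 72.8% against mosaic Brg1-deleted cells. Under these totals 18 of 32 members were lower and 0 higher against WT, where 468 of 10656 genes were lower and 1654 higher. Against mosaic Brg1-deleted cells 16 of 31 members were lower and 0 higher, where 470 of 10634 genes were lower and 1256 higher.

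WT and mosaic Brg1-sufficient cells, both with Brg1, differed in 3 members. Usp18 was 2.60-fold (2.48 to 2.72) and Oas1a 2.40-fold (2.17 to 2.65) higher in WT, where 4.18% of 10141 genes were higher. Ifit3 was 6.29-fold lower (5.15% of genes were lower), but the sum of Ifit3 and Ifit3b differed only 1.42-fold. The median of the members was 0.34. WT cells had more myeloid reads (428 against 134 CPM over 8 markers) and more B cell reads (73.9 against 45.9 CPM over 5 markers) than the mosaic Brg1-sufficient cells, and the part of these was not tested.

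Within rKO1 mice, Brg1-deleted cells after TAM were set against untreated ones. Between GFP+ cells after TAM and untreated cells, 0 of 24 members were called in either direction, where 2.15% of 10304 genes were higher and 2.26% lower. At such shares few calls would fall among 24 genes, so that their absence says little. The median was −0.28, against 0.0004 for all genes, with 16 members below 0 and 8 above. Untreated cells had 10 reads of Xist and GFP+ cells 934, so that TAM and the sex of the mice cannot be told apart here. Dtx3l was 1.75-fold lower (1.59 to 1.93) and Oas1a 1.81-fold higher (1.48 to 2.23) after TAM. The 8 members left out for low reads were Ifi44, Ifit3b, Mx1, Oas2, Oas3, Oasl1, Oasl2 and Rsad2, which had between 5 and 70 reads in these libraries.

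**Figure D3:**
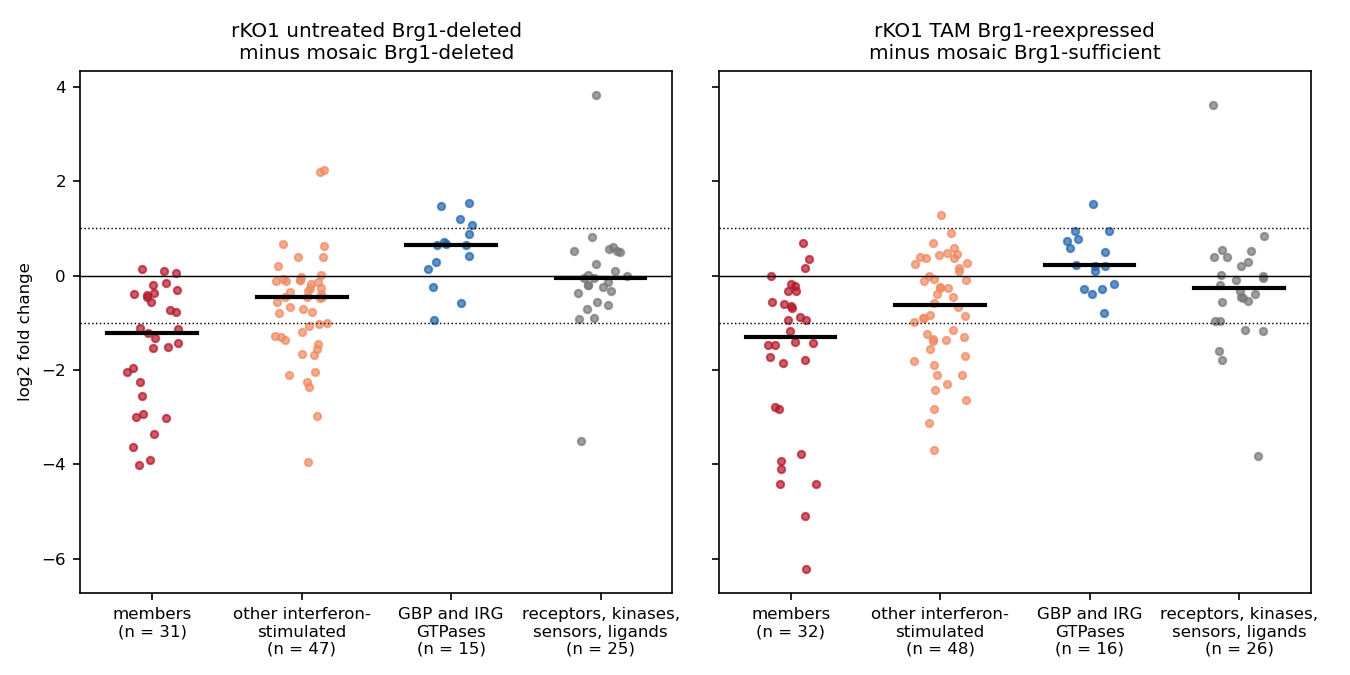
Log2 fold changes between rKO1 and mosaic libraries without Brg1 (left) and with Brg1 (right), 1 point per gene with 5 CPM in either library, black bars for medians and dotted lines for 2-fold. The members lie lowest in both panels (medians −1.22 and −1.29), other interferon-stimulated genes less so (−0.46 and −0.62), and the GBP and IRG GTPases have medians above 0 (0.65 and 0.22).

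Genes of the wider response that are not members were read from lists set down by name. Of 52 other interferon-stimulated genes, 17 of the 47 with enough reads were lower and 2 higher in untreated rKO1 than in mosaic Brg1-deleted cells (median −0.46). Over all genes 6.95% were lower and 8.16% higher. In GFP− rKO1 against mosaic Brg1-sufficient cells, 18 of 48 were lower and 1 higher (median −0.62), against 10.9% and 10.8% of all genes. Those under 5 CPM in rKO1, Mx2 among them, could not be called higher. Mx2, the relative of Mx1, had 26.5, 13.6 and 18.6 CPM in WT, mosaic Brg1-sufficient and mosaic Brg1-deleted cells against 2.35, 1.91 and 1.55 CPM in untreated, GFP+ and GFP− rKO1 cells. Ifi213, a DNA sensor of the interferon-inducible p200 family, had 161, 116 and 111 against 25.8, 25.0 and 23.6 CPM. Ifitm2 was higher in rKO1, with 9.47 to 13.1 CPM in the former and 24.1 to 62.0 CPM in the latter libraries.

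The GBP and IRG GTPases, which attack the vacuoles of intracellular pathogens and respond to interferon gamma, were divided. In untreated rKO1 against mosaic Brg1-deleted cells, 4 of 15 were higher and 0 lower (median 0.65), where 8.16% and 6.95% of all genes were. In GFP− rKO1 against mosaic Brg1-sufficient cells 1 of 16 was higher and 0 lower (median 0.22), where 10.8% and 10.9% of all genes were. Against WT, 3 of 16 were higher and 3 lower in untreated rKO1 cells (median 0.61), the latter being Gbp10, Tgtp1 and Tgtp2, where 8.61% and 7.11% of all genes were. Gbp4 had 120, 78.2 and 123 CPM in WT, mosaic Brg1-sufficient and mosaic Brg1-deleted cells and 282, 159 and 224 CPM in untreated, GFP+ and GFP− rKO1 cells. Gbp8 followed with 74.0, 48.6 and 55.0 against 160, 95.2 and 93.2 CPM. Gbp10 had 16.4, 7.41 and 4.57 against 3.35, 4.31 and 7.88 CPM, and Tgtp1 had 147, 83.3 and 69.4 against 46.3, 41.9 and 73.5 CPM. Tgtp2 was close to Tgtp1, at 112, 84.0 and 60.6 against 31.5, 34.2 and 64.1 CPM, and in all 3 genes the GFP− level passed that of mosaic Brg1-deleted cells. The Tgtp genes are close copies, so that their reads are uncertain. Under library totals the median of all genes moved by 0.22 in the first comparison, in the direction of higher GTPases.

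Receptors, kinases and sensors upstream of the module were read from a list of the pathway. Of 36 such genes and ligands, 25 had enough reads in untreated rKO1 against mosaic Brg1-deleted cells, and 1 was higher and 1 lower, with a median of −0.05. Over all genes 8.16% were higher and 6.95% lower. In GFP− rKO1 against mosaic Brg1-sufficient cells, 1 of 26 was higher and 5 were lower, with a median of −0.27, where 10.8% and 10.9% of all genes were. The receptor subunit Ifnar1 had 79.5, 81.9 and 110 CPM in WT, mosaic Brg1-sufficient and mosaic Brg1-deleted cells and 158, 109 and 94.2 CPM in untreated, GFP+ and GFP− rKO1 cells. It was not lower in all rKO1 cells. Ifngr2, of the interferon gamma receptor, was lower in all of them, at 66.5, 67.7 and 70.5 against 37.3, 43.4 and 19.7 CPM. Ifnar2 had 85.2, 112 and 107 against 93.3, 81.8 and 50.2 CPM. The 5 genes lower in GFP− rKO1 than in mosaic Brg1-sufficient cells were Ifnar2, Ifngr2, Socs1, Adar and Tlr7. The pair called between the Brg1-deleted libraries was Ifng, the gene of interferon gamma, at 4.22, 1.09 and 0.576 against 8.26, 18 and 13.4 CPM, and Tlr7, a receptor for RNA in endosomes that B cells and plasmacytoid dendritic cells also express, at 12, 10.2 and 13.8 against 1.2, 2.24 and 0.716 CPM. The type I and III interferon genes Ifnb1, Ifna2, Ifne, Ifnl2 and Ifnl3 had 0 reads in all 8 libraries, which allows up to 3 reads or 0.124 to 0.181 CPM per library, and Ifna4 and Ifnk did not exceed 0.218 CPM.

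To describe the module by Brg1 status, cells with and without Brg1 from mice of the same kind were compared. In the mosaic females 0 of 32 members were called in either direction between Brg1-sufficient and Brg1-deleted cells, where 4.03% of 10071 genes were higher and 2.09% lower with Brg1. At such shares few calls would fall among 32 genes, so that their absence says little. The median was 0.01, with 17 members above and 15 below 0. Isg20 (1.94-fold, 1.86 to 2.02), Ifi27l2a (1.81-fold, 1.79 to 1.83) and Oas2 (1.75-fold, 1.36 to 2.24) were the nearest to the threshold among those higher with Brg1. Ifit1 (1.60-fold, 1.51 to 1.70), Irf9 (1.59-fold, 1.51 to 1.66) and Usp18 (1.58-fold, 1.51 to 1.66) had the larger values among those lower with Brg1. By library totals the share of higher genes among all calls was 49.3% in place of 65.9%, and the median of the members was −0.12.

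In rKO1 mice after TAM, Brg1-reexpressed (GFP−) against Brg1-deleted (GFP+) cells gave 25 members with enough reads, of which 3 were higher and 1 lower. Among all 10320 genes 7.16% were higher and 5.63% lower. Ifi27l2a was 3.21-fold higher (3.15 to 3.27), Mx1 2.39-fold (1.65 to 3.54) and Isg20 2.11-fold (2.0 to 2.23), while Usp18 was 3.01-fold lower (2.64 to 3.44). The median of the members was 0.07. Of the 7 members with under 5 CPM in both libraries, Oasl2 had 9 reads with Brg1 and 55 without and Ifi44 had 9 and 40, while Ifit3b, Oas2, Oas3, Oasl1 and Rsad2 had intervals that include no difference. With library totals, 1 member was higher and 2 were lower, where 373 of 10350 genes were higher and 1261 lower. The median of the members was then −0.29, and the share of higher genes among all calls was 22.8% in place of 56.0%. The GTPases had a median of 0.64 in this comparison, with Iigp1 at 266 against 114 CPM as the single call. Zbp1 (1.85-fold, 1.75 to 1.95) and Oas1a (1.67-fold, 1.43 to 1.96) were also higher with Brg1 and stayed under the threshold. Marker sums of other cells also differed between GFP− and GFP+ cells. They were 51.9 and 110 CPM over 8 myeloid and 12.5 and 26.6 CPM over 5 neutrophil markers. The sum of 5 B cell markers went the other way, at 26.6 and 17.5 CPM, and the part of these cells was not tested.

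The aTreg libraries are described by their titles, against which the level of Smarca4 goes. Of 29 members with enough reads 2 were higher and 1 lower in the library labelled Brg1-reexpressed, where 4.4% of 10035 genes were higher and 2.03% lower. Rsad2 had 68.4 CPM in it and 14.0 CPM in the library labelled Brg1-deleted, 4.90-fold apart (4.28 to 5.64), and Ifi44 had 6.86 and 1.41 CPM, 4.84-fold apart (3.15 to 7.77). Oasl2 was 2.47-fold lower (1.89 to 3.25), at 4.11 against 10.2 CPM. The median log2 fold change was −0.18, with 11 members above and 18 below 0. Rsad2 and Ifi44 did not move with other members, as Ifit1 had 75.3 and 70.7 CPM, Isg15 79.4 and 78.7 CPM, Irf7 179 and 203 CPM and Usp18 77.0 and 132 CPM in the libraries labelled Brg1-reexpressed and Brg1-deleted. The red cell genes named above, the myeloid marker sum (734 against 502 CPM) and the plasma cell marker Jchain (85.8 against 23.3 CPM) were higher in the library labelled Brg1-reexpressed, and their part in these differences was not tested. Oas2, Oas3 and Oasl1 stayed under 5 CPM in both.

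**Figure D4:**
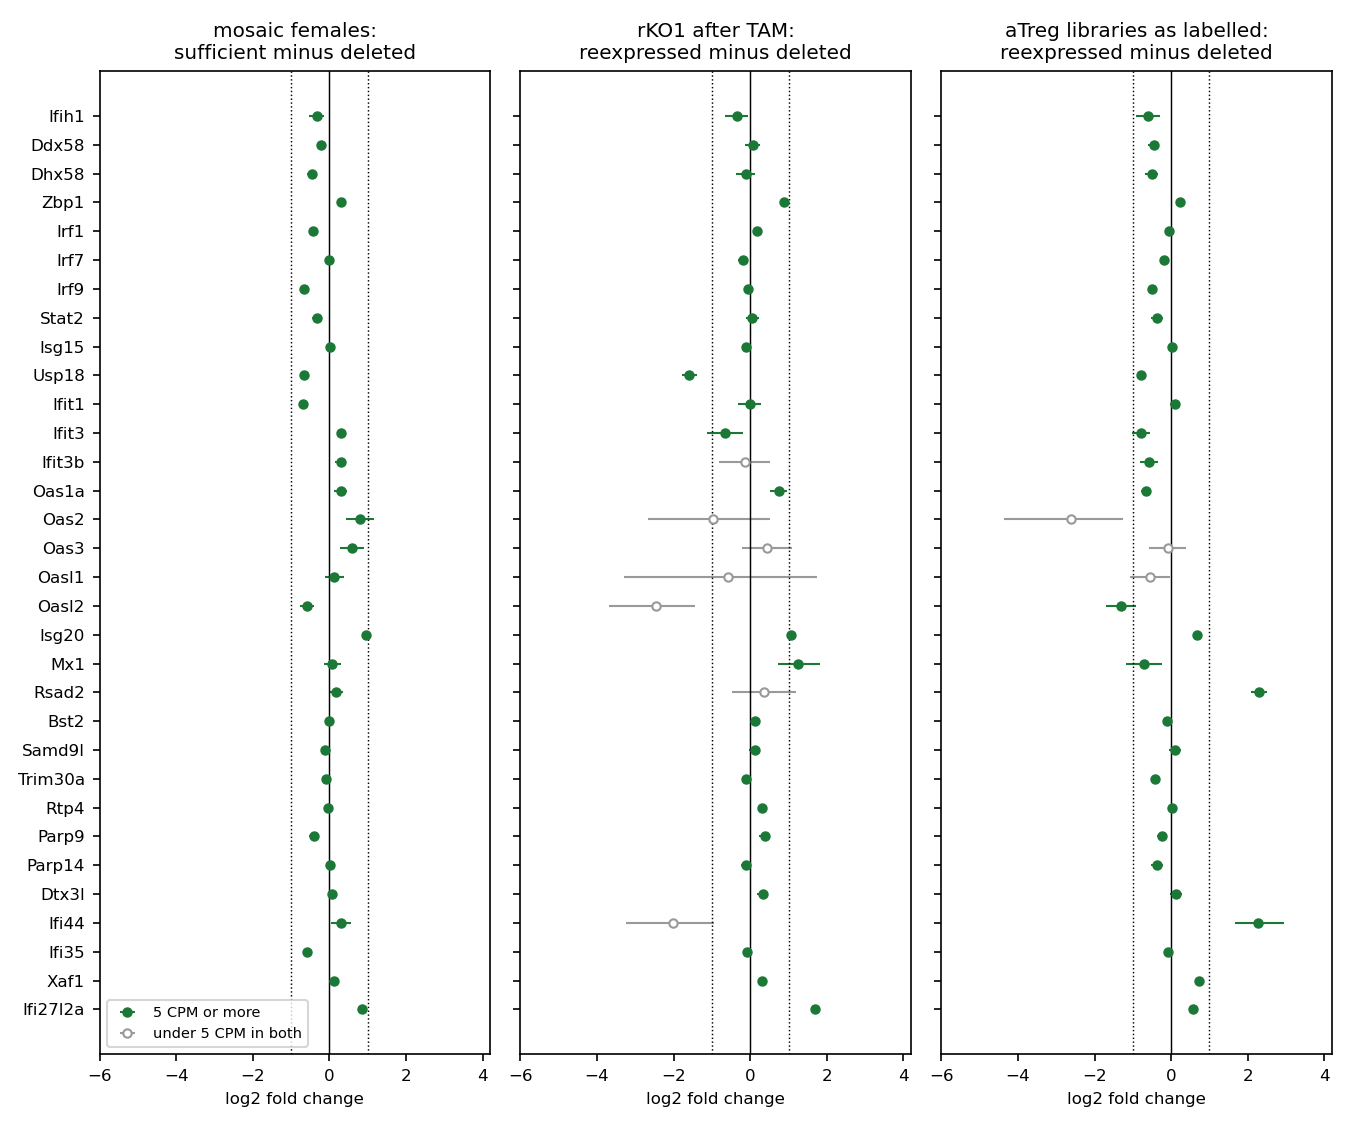
Log2 fold change of each member between cells with and without Brg1 in mosaic females, in rKO1 mice after TAM and in the aTreg libraries as labelled, with exact 95% intervals of the reads. Open points had under 5 CPM in both libraries and dotted lines mark 2-fold. No filled point passes 2-fold in mosaic females, 4 do in rKO1 mice and 3 in aTreg cells.

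Some members are given side by side, chosen after their values were seen. Isg20 was 1.94-fold higher with Brg1 in mosaic and 2.11-fold in rKO1 cells, Ifi27l2a 1.81-fold and 3.21-fold. Usp18 was 1.58-fold and 3.01-fold lower with Brg1, and Oasl2 1.5-fold and 5.52-fold lower, the latter from 9 and 55 reads. In the aTreg libraries as labelled, Isg20 was 1.60-fold and Ifi27l2a 1.49-fold higher and Usp18 1.72-fold and Oasl2 2.47-fold lower. These directions rest on the aTreg labels, and with the labels exchanged, as the level of Smarca4 would order them, all 4 would be opposite to those of mosaic and rKO1 cells. Were the library titled Brg1-deleted a WT one, as the heading in its file reads, the aTreg values would not compare cells with and without Brg1. Other members differed in direction between the comparisons, among them Mx1 (log2 fold changes of 0.08, 1.26 and −0.70) and Oas1a (0.30, 0.74 and −0.66).

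The promoters gave a description of what the members share in sequence. RefSeq windows from 250 bases before to 50 after the start were found for 23 of the 32 members. The windows of Dhx58, Ifi27l2a, Mx1, Oas2, Parp14, Parp9, Rtp4, Usp18 and Zbp1 were not used here. On either strand GAAANNGAAA occurred in the windows of 12 members (Bst2, Ddx58, Ifih1, Ifit1, Ifit3, Ifit3b, Isg15, Oas1a, Oas3, Rsad2, Stat2 and Trim30a), against 3.99% of 27025 genes with a window (3.44% of 32851 windows). TTCNNNGAA, which is its own reverse complement, occurred in 5 (Bst2, Ifi35, Irf1, Isg20 and Oas1a), against 9.55% of genes (8.30% of windows). The ISRE-like match was found in 5 of 9 members with a window among the 14 with a gap of 2-fold or more, and in 7 of 14 with a window among the others. The promoters of Rsad2 and Oas3, which belong to the 14, hold 1 match each, 120 and 75 bases before the start.
Rsad2 (chr12:26456453-26456652, minus strand): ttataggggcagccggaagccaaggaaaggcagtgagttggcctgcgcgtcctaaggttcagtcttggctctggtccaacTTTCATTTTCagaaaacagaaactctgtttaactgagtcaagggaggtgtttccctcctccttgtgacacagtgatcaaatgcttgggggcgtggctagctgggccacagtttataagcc
Oas3 (chr5:120777660-120777859, minus strand): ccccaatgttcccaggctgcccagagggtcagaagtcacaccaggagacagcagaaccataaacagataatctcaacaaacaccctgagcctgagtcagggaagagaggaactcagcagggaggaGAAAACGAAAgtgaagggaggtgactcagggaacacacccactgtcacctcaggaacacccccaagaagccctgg
A match in these letters is a description of the sequence, and no binding was measured.

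**Figure D5:**
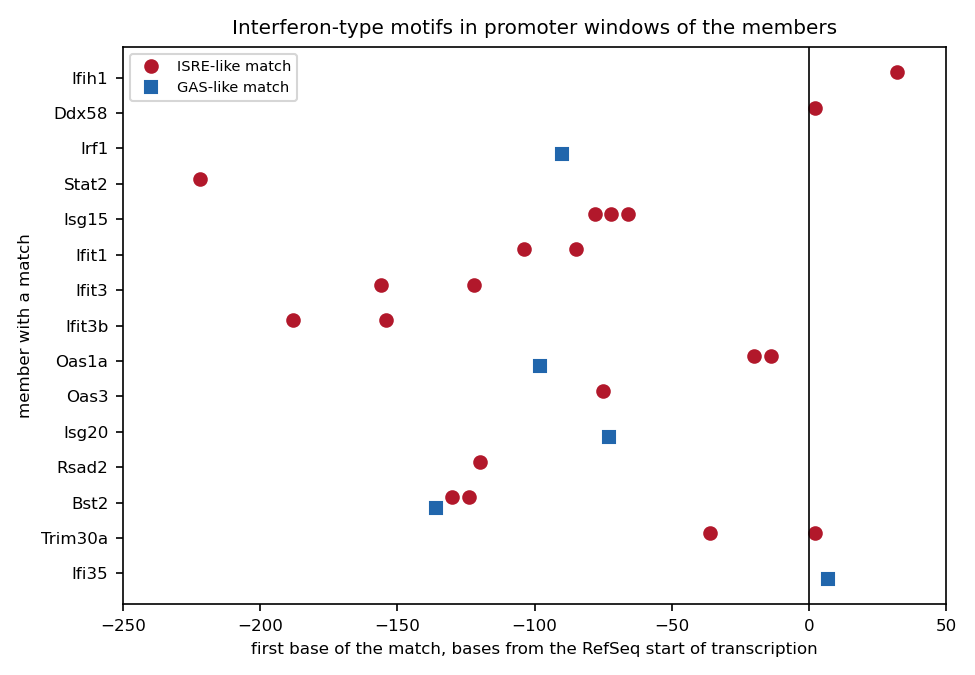
Position of the first base of each ISRE-like (circles) and GAS-like (squares) match in the RefSeq windows of the members that hold any, in bases from the start of transcription (vertical line). The ISRE-like matches of Isg15 and the IFIT genes lie between 188 and 66 bases before the start, and Irf1 has only a GAS-like match, at 90 bases before it.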

How the data were processed

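RNA of 8 libraries of sorted mouse Treg cells, 1 per condition, was copied with the SMART-Seq v4 kit, which does not mark strand, and read in pairs. The authors deposited FPKM values, reads per exon length and per scaled library total, for 53465 Ensembl genes. The submitters' processing notes name HISAT2 2.0, StringTie 1.3.3b, featureCounts 1.5.0-p3 and mm10, with no role. Replicate numbers here only name samples.

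Reads were recovered as FPKM times the GENCODE M21 length of all exons merged, times the library total at which values became whole within 0.02 reads. This held for 93.3% of 26057 genes with reads in the total Treg and for 100% of 21242 genes in the aTreg experiment. Another length served 1744 genes (Mx1 and Dtx3l among them), and 105 identifiers were not in the annotation. TMM factors (0.867 to 1.17) were computed over the libraries of each experiment, and 0.125 reads were added before log2 fold changes. The scaled level used a pseudocount of 0.5 CPM. Genes with 5 CPM in either library and a 2-fold difference were called (TMM and the CPM filter follow the study's methods), and 3 reads were the floor. Intervals are exact (Clopper-Pearson for folds). No test across genes was made, since each comparison has 1 library per side. Recovery and calls were tested on simulated data. Alternatives were library totals, median-of-ratios size factors, deposited FPKM (pseudocount 0.1, minimum 1), no filter, a prior of 2 reads and z-scores. Those that leave out the WT or the untreated rKO1 library, and the sum of Ifit3 and Ifit3b, were chosen after seeing the data. The members, lists and comparisons were chosen with earlier results of these data known. A gene of the pathway list is not reported here. Every member is accounted for, and genes outside the module come from lists fixed by name, with examples chosen after their values were seen. The work was done in Python 3.11.15 (pandas 2.3.3, SciPy 1.17.1, NumPy 2.4.6) and drawn in matplotlib 3.10.9.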

Additional observations from a re-analysis of the deposited data

How the results depend on the processing

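Of 82 values recomputed under other settings, 72 moved little and 10 moved. Leaving out the CPM filter could not move values where all 32 members already passed it, and these are among the 72. So is the number of calls between GFP− and GFP+ cells without the filter, which went from 4 to 6. Library totals in place of TMM gave a median log2 fold change of the members of −0.12 between mosaic Brg1-sufficient and Brg1-deleted cells, −0.29 between GFP− and GFP+ rKO1 cells, −1.37 between untreated rKO1 and WT cells and −1.01 between untreated rKO1 and mosaic Brg1-deleted cells. The totals moved the median of all genes by −0.13, −0.35, 0.30 and 0.22 in these comparisons, which accounts for most of each move. The first 2 of these medians thus changed sign (from 0.01 and 0.07), and the calls between GFP− and GFP+ cells turned from 3 higher and 1 lower to 1 higher and 2 lower. Under totals 373 of 10350 genes were higher and 1261 lower in that pair. Without the CPM filter, 1 member was called between GFP+ and untreated rKO1 cells, with a median of −0.15, as 8 more members then entered. Deposited FPKM values called 5 members between WT and mosaic Brg1-sufficient cells, and the cause was not tested. The gap between the mosaic or WT libraries and the rKO1 libraries in the median scaled level was 1.02 with library totals, 1.38 with z-scores and 1.2 without the WT library. The order within the rKO1 libraries turned over in these 3 settings, and without the WT library that of both mosaic libraries did too.

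The number of members with all 3 rKO1 libraries below the others was 19 with library totals (7.67% of genes) and 21 with median-of-ratios factors (11.8%). It was 19 with deposited FPKM (9.74%), 23 without the WT library (24.0%) and 26 without the untreated rKO1 library (17.6% of genes). No paired analysis was possible because every condition has 1 library. Depth limits Oasl1, Oas2, Oas3, Oasl2, Rsad2 and Ifi44 in rKO1 cells, where they had between 3 and 55 reads.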
